A study of Rattus norvegicus with 12 samples.

Results

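The high fat diet was examined in rats that received S-allylmercaptocysteine in both arms: 3 liver libraries labelled HFD+SAMC were set against 3 labelled Control+SAMC. Members were chosen by these treatment labels, which gave 6 of the 12 libraries of the series. S-allylmercaptocysteine, SAMC for short, is an organosulfur compound that forms in aged garlic and dissolves in water. Livers were from Sprague Dawley rats, an outbred strain, and SAMC was co-administered with a high fat diet (HFD+SAMC) or with the control diet (Control+SAMC), so that the groups compared share SAMC and differ by diet. The other 6 libraries, 3 labelled HFD and 3 labelled Control, received no SAMC and are given beside these only where they bear on them. By its title the series asks whether SAMC acts on fatty liver through drug-metabolising enzymes and inflammatory pathways. Dose, duration, sex, age and diet composition are not given in the labels. The labels do not say that the libraries come from separate animals, so a p-value here covers no more than the spread among these libraries, and that spread may be technical.

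The liver makes cholesterol and fatty acids through enzymes whose genes are switched on by the transcription factors SREBP2 and SREBP1c, and it burns fatty acids through enzymes whose genes respond to the receptor PPARalpha. Dietary cholesterol is known to lower the activity of SREBP2, and dietary fatty acids are known to raise that of PPARalpha. The diet composition is not given, so no direction is taken as known in advance for these livers. The liver also holds enzymes that oxidise, conjugate and export foreign compounds, under control of the receptors CAR, PXR and AhR and of the factor Nrf2, which electrophiles and organosulfur compounds are known to activate.

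RNA depleted of ribosomal RNA was sequenced and the deposited counts per gene were compared. Values are CPM, counts per 1000000 counts after scaling of library sizes, and differences are log2 fold changes ± SE of HFD+SAMC over Control+SAMC unless other groups are named. Total counts per library were 45680738 to 61937544. The hepatocyte markers albumin, transferrin and apolipoprotein B were abundant in all 6 libraries, with albumin at 67362 to 145387 CPM. HFD+SAMC replicate 3 stood apart by skeletal muscle transcripts: Acta1 was at 439.7 CPM there and at no more than 0.135 CPM in any other library, and all 21 muscle markers listed were highest in that library among the 6. Among the 6, Control+SAMC replicate 1 stood apart by the fibrinogen gene Fga, at 3407 CPM against 8221 to 17184 CPM in the other 5. Over the whole series this low level was not particular to it. Without SAMC, Fga was also low in Control replicate 2 (3588 CPM), HFD replicate 3 (3378 CPM) and HFD replicate 2 (3822 CPM). The remaining libraries without SAMC ranged from 12950 to 18523 CPM. Results are therefore given with and without HFD+SAMC replicate 3 and Control+SAMC replicate 1 where they matter. The deposited RPKM of the gene RGD1562465 implied a length of 3377 bp in the HFD+SAMC and Control libraries and of 4432 bp in the Control+SAMC and HFD libraries. By this 1 gene of 40154 the libraries fall into 2 sets, called library sets here. The labels name no batch, run or length table, and how the sets arose is not known. Each set holds only 1 of the 2 groups compared, so a difference between the sets and a difference by diet cannot be told apart in HFD+SAMC against Control+SAMC, and no value within a set exists. HFD against Control crosses the sets in the opposite direction and shares no library with it. The mean of the diet differences with and without SAMC is balanced over the sets.

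In livers given SAMC, the high fat diet came with higher transcripts of Vnn1, Cyp2b1, Cidea and Josd2 and lower transcripts of Apoa4, A2ml1, Smpdl3b and 3 genes with provisional or pseudogene names. These 10 genes passed an adjusted p of 0.05 (edgeR's quasi-likelihood test, Benjamini-Hochberg over 15916 genes), which is 0.0628% of the genes tested. Of all genes tested, 0.0251% passed higher and 0.0377% passed lower. Around them lay broader shifts below that threshold: the log2 fold change was below 0 for all 26 sterol genes tested (synthesis and uptake of cholesterol) and for 24 of 27 genes of fatty acid and triglyceride synthesis, and above 0 for 19 of 22 genes of mitochondrial fatty acid oxidation. Without adjustment, 1732 genes had a p under 0.05, 10.9% of those tested, 895 higher (5.62%) and 837 lower (5.26%). The 3 libraries of each group did not overlap for 1475 genes that were higher (9.27%) and 1360 that were lower (8.54%). The median log2 fold change over all genes was 0.01, and 51.1% of genes were above 0.

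The number of genes past the threshold depended on single libraries. It was 2 without HFD+SAMC replicate 1 or replicate 2, 1 without HFD+SAMC replicate 3, 4 without Control+SAMC replicate 1, 1 without Control+SAMC replicate 2 and 8 without Control+SAMC replicate 3. Libraries of the groups without SAMC enter the shared estimate of spread: the count was 6, 7 and 6 without HFD replicate 2, 3 and 4, and 23, 45 and 3 without Control replicate 1, 2 and 3. With both HFD+SAMC replicate 3 and Control+SAMC replicate 1 left out, edgeR's test called 0 genes, with 1262 genes at an unadjusted p under 0.05. DESeq2 on all 12 libraries called 101 genes higher and 147 lower, among them all 10.

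Vnn1, which encodes the pantetheinase vanin 1 of coenzyme A turnover and is a known target of PPARalpha, rose 4.32-fold. It had 189, 104 and 114 CPM in the HFD+SAMC libraries and 29.4, 32.9 and 32.2 CPM in the Control+SAMC libraries. The lowest HFD+SAMC library lay above the highest Control+SAMC library by a wide margin, and HFD+SAMC replicate 1 was the highest of the 6. Its log2 fold change was 2.11 ± 0.23 with an adjusted p of 0.00951 (edgeR, Benjamini-Hochberg), and it kept that call without any single library except Control+SAMC replicate 2, where the adjusted p was 0.0656. Without SAMC, Vnn1 had 102, 108 and 93.4 CPM in the HFD libraries and 49.4, 35.8 and 30.2 CPM in the Control libraries, again with no overlap between diets. The interaction, which tests whether the diet difference itself differs with SAMC, was 0.72 ± 0.32 with an adjusted p of 0.662. The deposited table places Vnn1 on chromosome 1, 22614832 to 22625134, without naming a build.

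Cyp2b1, a phenobarbital-inducible cytochrome P450 and classical target of the receptor CAR, had the highest fold of the 4 genes that rose past the threshold, at 10.4-fold. It had 70.3, 47.1 and 50.7 CPM in the HFD+SAMC libraries and 7.20, 4.93 and 4.07 CPM in the Control+SAMC libraries, or 56.1 ± 12.5 against 5.40 ± 1.62 CPM (SD, n = 3 each). All HFD+SAMC libraries exceeded all Control+SAMC libraries. The log2 fold change was 3.38 ± 0.42 (adjusted p = 0.0195, edgeR, Benjamini-Hochberg), between 3.18 and 3.64 with any 1 library left out. The call was lost when any of the 6 libraries compared, or Control replicate 3, was left out, with an adjusted p of up to 0.132 in edgeR. Cyp2b2, its closest relative, had 329.9, 203 and 252 CPM in the HFD+SAMC libraries and 51.7, 38.0 and 35.1 CPM in the Control+SAMC libraries. These libraries did not overlap either, at 2.65 ± 0.44, with an adjusted p of 0.0670 (edgeR, Benjamini-Hochberg) that missed the threshold. Cyp2b3, a further member of the family, lay on the other side of 0 with 165, 140.3 and 180.2 CPM in the HFD+SAMC libraries and 480.2, 403 and 288 CPM in the Control+SAMC libraries, a difference of −1.27 ± 0.23 (edgeR, adjusted p = 0.0730). In the groups without SAMC, Cyp2b1 stood at 7.66, 25.9 and 12.3 CPM in the HFD libraries and 0.381, 0.636 and 0.516 CPM in the Control libraries, lower in both diets than with SAMC. Counting was per gene, and reads of Cyp2b1 and Cyp2b2 could be split between them, so their separate values are uncertain.

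The stretches before the starts of Cyp2b1 and Cyp2b2 are shown because they make plain how alike these genes are. They are 250 bases each, from RefSeq, build GRCr8: chr1:90645869-90646118 (plus strand) and chr1:90722031-90722280 (plus strand). The deposited table places Cyp2b1 on another chromosome, 7, than GRCr8, 1. Capitals mark the 8 bases that differ over the 233 bases that overlap when the windows are shifted by 17 bases, of which 225 (96.6%) are the same.
Cyp2b1: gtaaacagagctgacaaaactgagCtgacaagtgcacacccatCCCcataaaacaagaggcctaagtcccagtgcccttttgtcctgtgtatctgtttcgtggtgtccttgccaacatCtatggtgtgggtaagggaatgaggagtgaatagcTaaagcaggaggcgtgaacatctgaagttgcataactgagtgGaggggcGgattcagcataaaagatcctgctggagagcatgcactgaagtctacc
Cyp2b2: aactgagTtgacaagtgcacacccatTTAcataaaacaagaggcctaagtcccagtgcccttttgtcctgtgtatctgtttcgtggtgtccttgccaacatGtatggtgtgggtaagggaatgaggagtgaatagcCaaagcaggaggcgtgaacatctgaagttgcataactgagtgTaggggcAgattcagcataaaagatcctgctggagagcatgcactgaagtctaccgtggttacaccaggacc

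Cidea, a lipid droplet protein that promotes droplet fusion and in mouse is known from brown fat and fatty liver, rose 3.19-fold. It had 28.7, 36.2 and 35.6 CPM in the HFD+SAMC libraries and 13.2, 9.83 and 8.48 CPM in the Control+SAMC libraries, with every HFD+SAMC library above every Control+SAMC library. The log2 fold change was 1.68 ± 0.26 (adjusted p = 0.0442, edgeR, Benjamini-Hochberg). The call was lost when any of the 6 libraries compared was left out (adjusted p up to 0.181 in edgeR), at values of 1.54 to 1.87. It was also lost without any HFD library or without Control replicate 3. Cidea is also an adipocyte marker. Of the other adipocyte markers, Lep and Ucp1 were at 0 in all 6 libraries and Adipoq was at 0.9 CPM or less, with its highest value in HFD+SAMC replicate 3. The marker list summed to 71.1, 78.5 and 88.7 CPM in the HFD+SAMC libraries and 46.7, 54.0 and 44.5 CPM in the Control+SAMC libraries, with Cidea included. Josd2, a deubiquitinase of the Josephin family, had 21.6, 19.3 and 19.3 CPM in the HFD+SAMC libraries and 10.9, 10.2 and 12.8 CPM in the Control+SAMC libraries. Its libraries were tightly grouped and did not overlap, at 0.83 ± 0.12 (adjusted p = 0.0442, edgeR, Benjamini-Hochberg). Of the 6 libraries compared, the call held without Control+SAMC replicate 3 and was lost without any of the other 5, with an adjusted p of up to 0.194 in edgeR.

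Apoa4, an apolipoprotein of chylomicrons and high density lipoprotein that rodent liver makes beside intestine, fell to lower levels in HFD+SAMC. It had 119.8, 143 and 87.3 CPM in the HFD+SAMC libraries and 626, 436 and 1019 CPM in the Control+SAMC libraries. The highest HFD+SAMC library lay well below the lowest Control+SAMC library. The log2 fold change was −2.57 ± 0.31 (adjusted p = 0.0118, edgeR, Benjamini-Hochberg), and the call held without any Control+SAMC library but not without an HFD+SAMC library, where the adjusted p was 0.0579 to 0.0881. Without SAMC, Apoa4 had 359, 403 and 256 CPM in the HFD libraries and 788, 877 and 1014 CPM in the Control libraries, also without overlap. The deposited table places it on chromosome 8, 50536983 to 50539371.

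A2ml1, a secreted protease inhibitor of the alpha-2-macroglobulin family, fell to 1.14, 2.16 and 2.58 CPM in the HFD+SAMC libraries, against 19.4, 22.1 and 14.4 CPM in the Control+SAMC libraries. That is a log2 fold change of −3.25 ± 0.46 (adjusted p = 0.0442, edgeR, Benjamini-Hochberg). The call was lost without any of the 6 libraries compared, with an adjusted p of up to 0.194 in edgeR, and the mean over SAMC was −1.58 ± 0.31 with an adjusted p of 0.0595. The groups without SAMC had 21.5, 9.26 and 19.6 CPM in the HFD libraries and 25.6, 10.2 and 11.3 CPM in the Control libraries, which overlapped, with a difference of 0.09 ± 0.42. The HFD+SAMC libraries were thus the low ones of the 12. The interaction was −3.34 ± 0.62 with an adjusted p of 0.0880 in edgeR, which missed the threshold. Smpdl3b, a membrane-bound phosphodiesterase related to acid sphingomyelinase, was scarce, with 0.324, 0.517 and 0.511 CPM in the HFD+SAMC libraries and 1.77, 2.89 and 2.58 CPM in the Control+SAMC libraries. Its log2 fold change was −2.42 ± 0.32 (adjusted p = 0.0195, edgeR, Benjamini-Hochberg). Of the 6 libraries compared, the call held without Control+SAMC replicate 1 and was lost without any of the other 5, with an adjusted p of up to 0.127 in edgeR. It falls below the level set for naming and was chosen after its values were seen.

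The remaining 3 genes that passed carry provisional or pseudogene names and were also named after their values were seen, except Eif4g2-ps1. LOC100362572, annotated only as protein-coding, had 2.56, 3.29 and 2.23 CPM in the HFD+SAMC libraries and 6.06, 7.02 and 6.87 CPM in the Control+SAMC libraries (log2 fold change −1.30 ± 0.20, adjusted p = 0.0442, edgeR, Benjamini-Hochberg). LOC100911991, listed as like elongation factor 1-alpha 1, had 3.18, 5.14 and 4.94 CPM in the HFD+SAMC libraries and 13.5, 17.0 and 15.3 CPM in the Control+SAMC libraries, at −1.79 ± 0.20 (edgeR, adjusted p = 0.00951). Eif4g2-ps1, a pseudogene of a translation initiation factor, had 4.40, 4.44 and 5.15 CPM in the HFD+SAMC libraries and 9.61, 9.01 and 12.2 CPM in the Control+SAMC libraries, at −1.14 ± 0.17 (edgeR, adjusted p = 0.0442). Both went the other way between the diets without SAMC, by 1.88 ± 0.20 and 1.05 ± 0.17. LOC100911991 and Eif4g2-ps1 were low in all 6 libraries of Control and HFD+SAMC and high in all 6 of Control+SAMC and HFD, which is the split of the library sets. For both genes, reads of near-identical copies may be shared. LOC100362572 and Eif4g2-ps1 lost the call without any of the 6 libraries compared, with adjusted p of up to 0.194 and 0.207 in edgeR. LOC100911991 lost it without HFD+SAMC replicate 3 or Control+SAMC replicate 2, with an adjusted p of up to 0.0656 in edgeR.

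**Figure D1:**
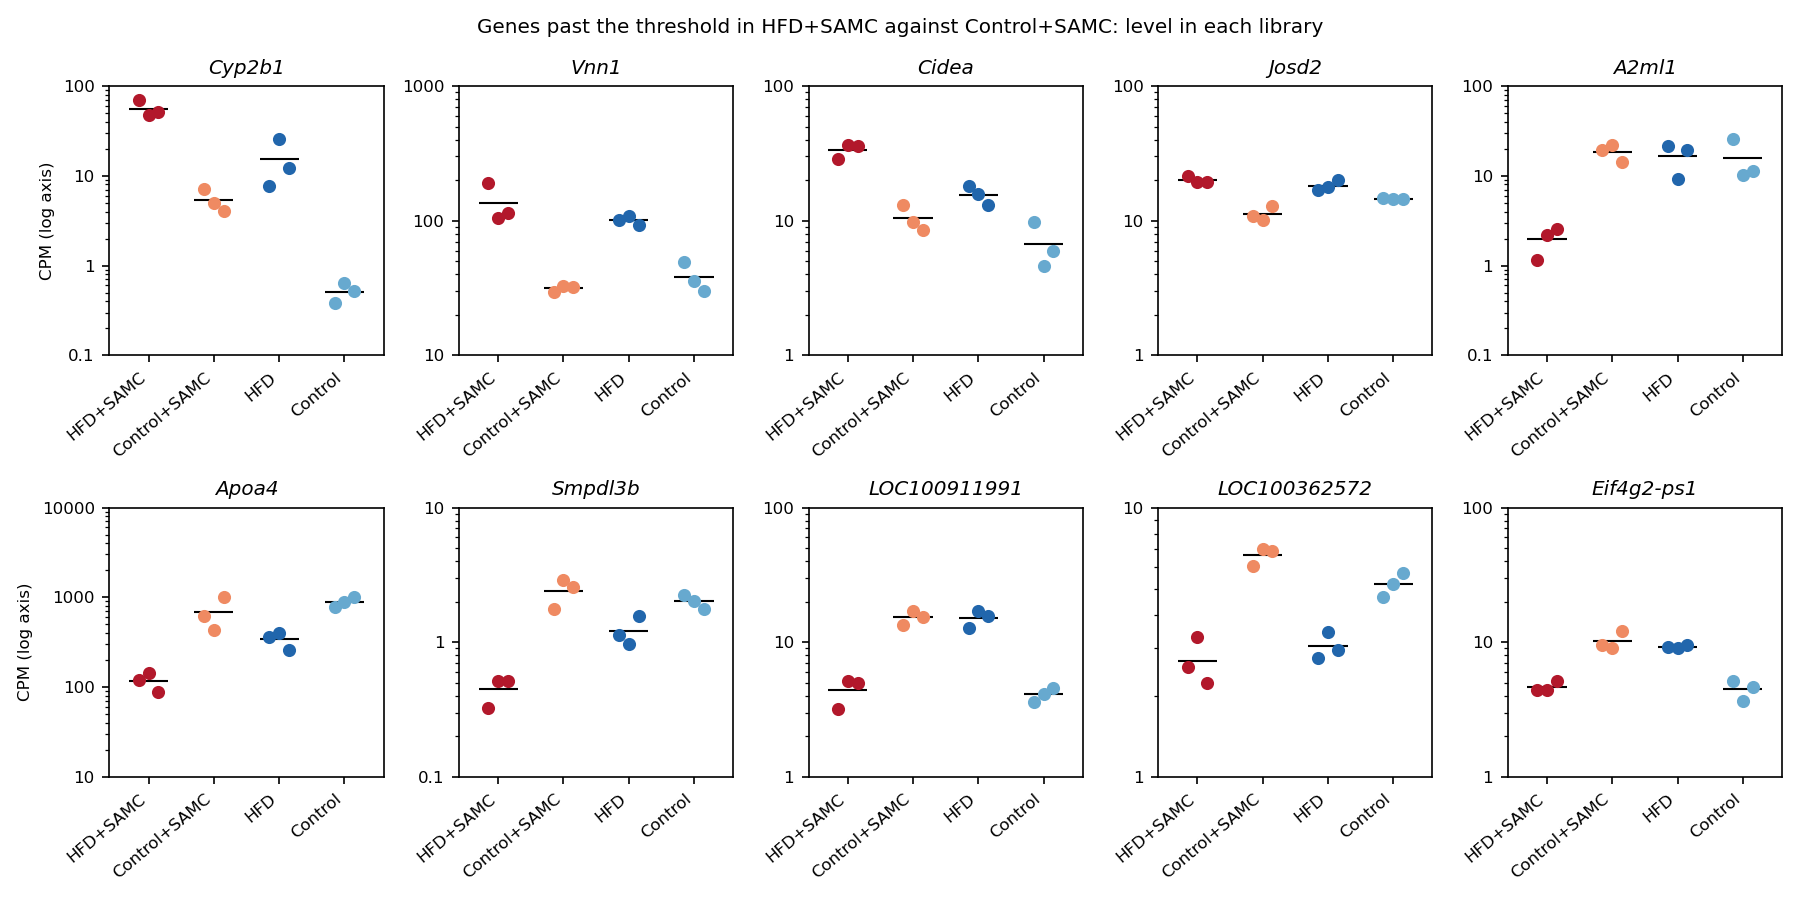
CPM on a log axis of the 10 genes past the threshold in each of the 12 libraries (points) with the group mean (horizontal lines), for HFD+SAMC, Control+SAMC, HFD and Control. Vnn1 sits at 104 to 189 CPM in HFD+SAMC and 29.4 to 32.9 CPM in Control+SAMC, and LOC100911991 and Eif4g2-ps1 are low in the HFD+SAMC and Control libraries and high in the other 6.

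Sterol genes stood lower in HFD+SAMC than in Control+SAMC as a group. All 26 members tested had a log2 fold change below 0, with a median of −1.43 against 0.01 over all genes. Of them, 21 had an unadjusted p under 0.05, against 5.26% of all genes, and the libraries of 24 did not overlap, against 8.54%. None passed the adjusted p, so no member is given as changed on its own. The mean level of the list, in log2 CPM relative to its mean over all 12 libraries, was −0.15, 0.07 and −0.43 in the HFD+SAMC libraries and 1.49, 1.23 and 1.05 in the Control+SAMC libraries. It was −1.39, −1.02 and −1.85 in the HFD libraries and −0.54, 1.56 and −0.02 in the Control libraries. The HFD+SAMC libraries thus lay within the range of the Control libraries and above the HFD libraries. Without HFD+SAMC replicate 3 and Control+SAMC replicate 1 the median was −1.20, with 25 of 26 members below 0 and 7 at an unadjusted p under 0.05.

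Insig1, the sterol sensor that holds SREBP in the endoplasmic reticulum and is itself an SREBP target, had 59.1, 77.7 and 52.0 CPM in the HFD+SAMC libraries and 463, 388 and 353 CPM in the Control+SAMC libraries (−2.67 ± 0.63, edgeR, adjusted p = 0.187). Every HFD+SAMC library lay below every Control+SAMC library. Tmem97, a sterol-regulated membrane protein, was the member with the smallest p, with 45.1, 52.3 and 55.1 CPM in the HFD+SAMC libraries and 115, 94.7 and 98.8 CPM in the Control+SAMC libraries (−1.02 ± 0.19, edgeR, adjusted p = 0.0867). Along the pathway, the differences were −1.96 ± 0.70 for Acat2 and −2.05 ± 0.72 for Hmgcs1, which make HMG-CoA, and −2.14 ± 0.71 for Idi1 and −1.62 ± 0.44 for Fdps, which make the isoprenoid units. Sqle, the squalene epoxidase, was at −1.84 ± 0.58, and Cyp51, the lanosterol demethylase, at −1.43 ± 0.40. Some later steps were closer to 0, with Ebp at −0.52 ± 0.26 and Tm7sf2 at −0.03 ± 0.32. The regulator Srebf2 was at −0.53 ± 0.24. Genes of cholesterol export and esterification, for contrast, had a median of −0.06, with 6 of 16 above 0.

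Stretches before the starts of 3 sterol genes are shown because most matched promoters of the list hold a short motif. CCAAT boxes, bound by the factor NF-Y, are known to work beside SREBP sites in such promoters. The 250 bases before the start, from RefSeq build GRCr8, matched 18 of the 26 members, and 15 of these 18 (83.33%) held CCAAT on either strand. Of all 33469 promoters of the same length 34.02% held it, and of those of genes tested here 35.62%. In fatty acid and triglyceride synthesis 13 of 21 promoters held it (61.9%). The sterol genes without it were Acat2, Cyp51 and Dhcr7, while Ebp and Tm7sf2, whose differences were small, held it. Whether the motif bears on the differences was not tested. TCACNCCAC, a form of the sterol response element, was in 0 of the 18 and in 0.97% of all promoters. Capitals mark CCAAT or its reverse complement. The windows are chr10:63945360-63945609 (minus strand), chr2:53382054-53382303 (plus strand) and chr4:8057770-8058019 (minus strand).
Tmem97: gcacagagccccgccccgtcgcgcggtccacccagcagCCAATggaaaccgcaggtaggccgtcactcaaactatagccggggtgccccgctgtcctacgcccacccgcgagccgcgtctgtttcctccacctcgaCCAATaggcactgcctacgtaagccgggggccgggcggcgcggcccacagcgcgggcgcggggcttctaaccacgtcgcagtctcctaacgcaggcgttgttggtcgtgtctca
Hmgcs1: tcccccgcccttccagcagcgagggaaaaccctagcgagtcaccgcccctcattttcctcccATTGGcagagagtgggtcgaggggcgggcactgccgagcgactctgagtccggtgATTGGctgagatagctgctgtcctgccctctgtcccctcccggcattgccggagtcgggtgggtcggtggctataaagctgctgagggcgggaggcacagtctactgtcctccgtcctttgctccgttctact
Insig1: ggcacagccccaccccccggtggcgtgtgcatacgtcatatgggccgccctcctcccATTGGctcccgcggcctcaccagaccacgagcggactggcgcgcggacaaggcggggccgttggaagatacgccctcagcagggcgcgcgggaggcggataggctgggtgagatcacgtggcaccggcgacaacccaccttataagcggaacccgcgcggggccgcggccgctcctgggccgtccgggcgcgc

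Fatty acid and triglyceride synthesis genes also stood lower, with 24 of 27 members below 0 and a median of −0.80. At an unadjusted p under 0.05 were 12, all lower, against 5.26% of all genes. The groups did not overlap for 15, all lower, against 8.54%. The size of this shift rested in part on Control+SAMC replicate 1: the median was −0.48 without it and −0.40 without it and HFD+SAMC replicate 3, with 19 of 27 below 0. Scd, the stearoyl-CoA desaturase that makes monounsaturated fatty acids, was scarce in HFD+SAMC, with 0.355, 0.737 and 2.58 CPM in the HFD+SAMC libraries and 105, 99.5 and 208 CPM in the Control+SAMC libraries. Its 3 HFD+SAMC libraries spread widely but all lay far below Control+SAMC. The log2 fold change of −6.81 ± 1.20 had an adjusted p of 0.0962 (edgeR, Benjamini-Hochberg), which missed the threshold. Averaged with the diet difference without SAMC, Scd passed at −6.02 ± 0.82 (edgeR, adjusted p = 0.0175). Acly, which makes cytosolic acetyl-CoA, had 111, 123 and 97.0 CPM in the HFD+SAMC libraries and 379.6, 251 and 292 CPM in the Control+SAMC libraries (−1.48 ± 0.41, edgeR, adjusted p = 0.251). Acss2, which makes acetyl-CoA from acetate, had 39.9, 42.5 and 37.0 CPM in the HFD+SAMC libraries and 112, 144 and 78.4 CPM in the Control+SAMC libraries, and Thrsp, a lipogenic regulator, 278, 270.3 and 326 CPM in the HFD+SAMC libraries and 514, 704 and 712 CPM in the Control+SAMC libraries. All 3 had groups that did not overlap. Fatty acid synthase Fasn was at −2.11 ± 0.60 and acetyl-CoA carboxylase Acaca at −1.16 ± 0.35. The regulator Srebf1 was at −0.80 ± 0.66 with an unadjusted p of 0.253, and the acyltransferases Dgat1 and Dgat2 were at −0.03 ± 0.14 and −0.28 ± 0.34. Pklr, the liver pyruvate kinase that feeds this route, had 114, 115 and 69.1 CPM in the HFD+SAMC libraries and 209, 169.7 and 216 CPM in the Control+SAMC libraries.

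Genes of mitochondrial fatty acid oxidation and ketogenesis were higher by small amounts. The median was 0.28, and 19 of 22 members were above 0. At an unadjusted p under 0.05 were 10, all higher, against 5.62% of all genes. The groups did not overlap for 11 that were higher and 1 that was lower, against 9.27% and 8.54%. None passed the adjusted p. Bdh1, which interconverts the main ketone bodies, had 268, 188 and 189.5 CPM in the HFD+SAMC libraries and 145, 97.5 and 116 CPM in the Control+SAMC libraries (0.85 ± 0.20, edgeR, adjusted p = 0.166). Acadl, a long-chain acyl-CoA dehydrogenase, had 461, 369 and 412 CPM in the HFD+SAMC libraries and 313, 294 and 327 CPM in the Control+SAMC libraries. In both genes HFD+SAMC replicate 1 was the highest of the 6 libraries. Without that replicate the median of the list was 0.14, with 17 of 22 above 0.

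PPARalpha targets lay on both sides of 0. Of 38 tested, 11 were higher at an unadjusted p under 0.05 and 3 lower, against 5.62% and 5.26% of all genes. The median was 0.17, or 0.04 without HFD+SAMC replicate 1 and 0.32 without HFD+SAMC replicate 3 and Control+SAMC replicate 1. Vnn1 was the member that passed the adjusted p. Ehhadh, the peroxisomal bifunctional enzyme, had 919, 458 and 476 CPM in the HFD+SAMC libraries and 201, 256 and 195 CPM in the Control+SAMC libraries (1.51 ± 0.27, edgeR, adjusted p = 0.0723). Acot1, a cytosolic acyl-CoA thioesterase, had 149.9, 32.5 and 36.5 CPM in the HFD+SAMC libraries and 1.58, 2.03 and 2.64 CPM in the Control+SAMC libraries (5.13 ± 1.14, edgeR, adjusted p = 0.170). HFD+SAMC replicate 1 was highest for both, and no library of either group overlapped the other. Acaa1b, a peroxisomal thiolase, was at 1.12 ± 0.37 and Pex11a, a factor of peroxisome division, at 0.94 ± 0.33. On the low side was Cyp4a1, a fatty acid omega-hydroxylase, with 217, 222 and 99.2 CPM in the HFD+SAMC libraries and 384, 354 and 388 CPM in the Control+SAMC libraries (−1.06 ± 0.29, edgeR, adjusted p = 0.224). Cyp4a3 was at −0.63 ± 0.27 and the fatty acid transporter Cd36 at −0.71 ± 0.31. The receptor gene Ppara itself was at 0.05 ± 0.25, and the targets Pdk4, Cpt1a and Angptl4 were at −1.11 ± 1.03, 0.29 ± 0.51 and −0.31 ± 0.57.

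Other lipid genes also lay on both sides of 0. Among fatty acid binding and activation genes, 5 of 23 were higher and 5 lower at an unadjusted p under 0.05, against 5.62% and 5.26% of all genes. Fabp7, a fatty acid binding protein, had 33.4, 17.4 and 28.6 CPM in the HFD+SAMC libraries and 7.64, 9.83 and 8.24 CPM in the Control+SAMC libraries (1.63 ± 0.29, edgeR, adjusted p = 0.0730). Acsl5, an acyl-CoA synthetase, had 194, 148 and 138 CPM in the HFD+SAMC libraries and 309.9, 229 and 284 CPM in the Control+SAMC libraries, and Acsm3, a medium-chain acyl-CoA synthetase, 9.80, 14.5 and 12.6 CPM in the HFD+SAMC libraries and 27.3, 55.9 and 22.4 CPM in the Control+SAMC libraries. Of the apolipoproteins and lipoprotein assembly genes, Apoc3, an inhibitor of triglyceride clearance, came next after Apoa4 by p, with 1198, 1200.4 and 1258 CPM in the HFD+SAMC libraries and 2101, 2639 and 1892 CPM in the Control+SAMC libraries (−0.86 ± 0.21, edgeR, adjusted p = 0.187). Apob, Apoa1 and Apoe were at −0.20 ± 0.24, 0.07 ± 0.30 and −0.08 ± 0.20. Besides Cidea, the lipid droplet genes had 8 of 19 members above 0 in all, with Plin2, the main droplet coat protein of liver, at 0.00 ± 0.54. G0s2, an inhibitor of adipose triglyceride lipase, had 96.7, 116 and 107 CPM in the HFD+SAMC libraries and 199.7, 143 and 196 CPM in the Control+SAMC libraries. Plin4 was at 0.340, 0.251 and 6.93 CPM in the HFD+SAMC libraries, its high value being the library with muscle transcripts, and at 0.211, 0.302 and 0.0204 CPM in the Control+SAMC libraries.

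**Figure D2:**
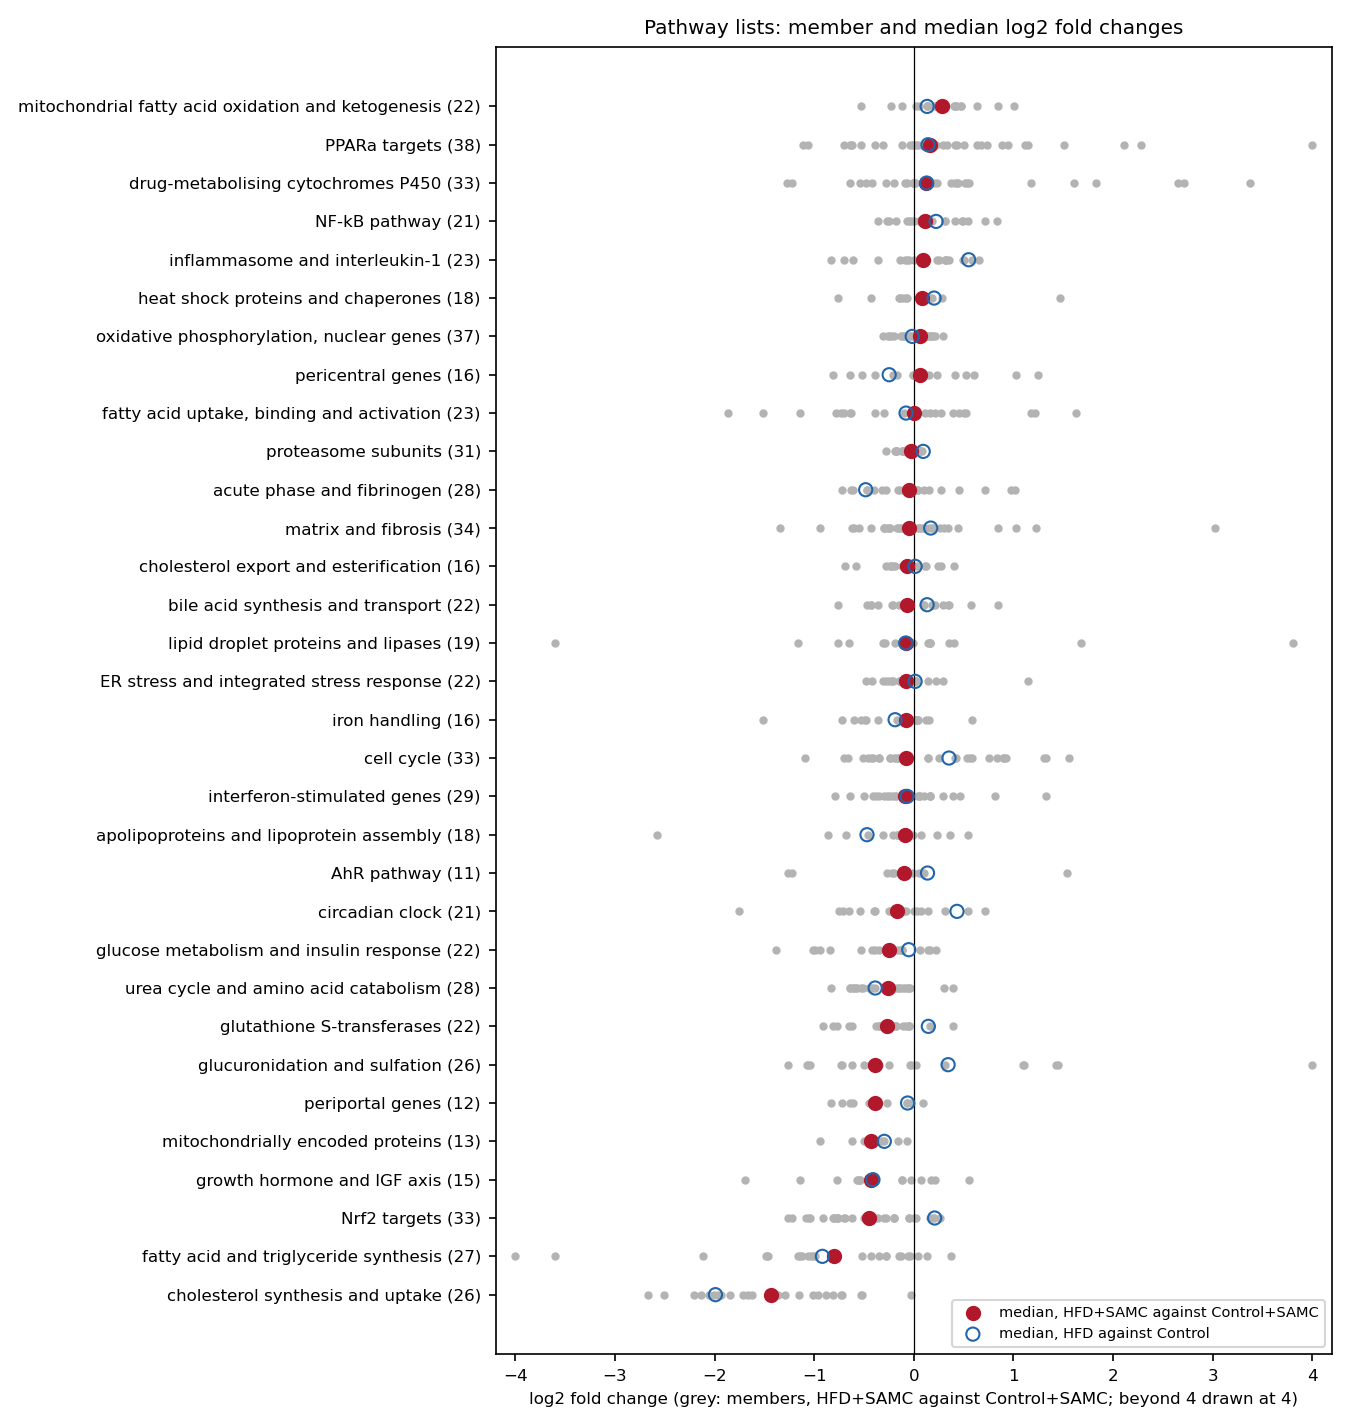
Log2 fold changes of list members in HFD+SAMC against Control+SAMC (grey points, 3 of them beyond 4 drawn at 4) with the list median (filled red circle) and the median in HFD against Control (open blue circle), for 32 pathway lists with the number of genes tested. The median of sterol genes lies at −1.43 with SAMC and −1.99 without, and that of Nrf2 targets at −0.45 with SAMC and 0.21 without.

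Drug-metabolising cytochromes P450, a main interest of the series, included the Cyp2b genes above. Of 33 tested, 8 were higher and 2 lower at an unadjusted p under 0.05, against 5.62% and 5.26% of all genes. The median was 0.13, or 0.29 without Control+SAMC replicate 2 and 0.25 without HFD+SAMC replicate 3 and Control+SAMC replicate 1. Cyp3a18, a steroid and drug hydroxylase, had 9.60, 4.67 and 17.3 CPM in the HFD+SAMC libraries and 3.04, 4.04 and 3.27 CPM in the Control+SAMC libraries (1.61 ± 0.40, edgeR, adjusted p = 0.188). Cyp3a62 and Cyp2a3 were at 1.83 ± 0.53 and 2.72 ± 0.98. Cyp1a2, an AhR target abundant in liver, had 1194, 1119.7 and 1195 CPM in the HFD+SAMC libraries and 955, 1555 and 1019 CPM in the Control+SAMC libraries, and Cyp1a1, the classical AhR readout, 0.911, 3.62 and 2.54 CPM in the HFD+SAMC libraries and 2.28, 13.9 and 0.348 CPM in the Control+SAMC libraries. Both groups overlapped for these genes, at −0.01 ± 0.23 and −1.22 ± 1.23. Cyp2e1, an ethanol-oxidising enzyme, was at −0.01 ± 0.20.

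Conjugating enzymes and Nrf2 targets were mostly lower in HFD+SAMC. Of 33 Nrf2 targets 28 were below 0, with a median of −0.45. At an unadjusted p under 0.05 were 14, all lower, against 5.26% of all genes. Of 22 glutathione S-transferases 20 were below 0 (median −0.27), and of 26 genes of glucuronidation and sulfation 19 were (median −0.39). Of these 26, 3 were higher and 6 lower at an unadjusted p under 0.05, against 5.62% and 5.26% of all genes. Ugt1a2, at 1.45, and the sulfotransferase Sult1c2, at 1.10 ± 0.40, lay on the higher side. The Nrf2 list itself holds conjugating enzymes, among them Gsta2, Gsta3, Gsta5, Gstp1, Gstm1 and Ugt1a6, so these lists are not independent. No member of these lists passed the adjusted p. Control+SAMC replicate 1 was the highest of the 12 libraries for the mean level of Nrf2 targets, which was 0.32, 0.34 and 0.10 in the HFD+SAMC libraries and 1.05, 0.54 and 0.44 in the Control+SAMC libraries on the log2 scale. Without it the median was −0.27 for Nrf2 targets and −0.14 for glutathione S-transferases, and without it and HFD+SAMC replicate 3 the medians were −0.15 and −0.13, with −0.25 for glucuronidation and sulfation. Without SAMC the lists of Nrf2 targets, glutathione S-transferases and glucuronidation and sulfation had medians above 0, at 0.21, 0.15 and 0.34 in the order given. In the mean over SAMC, which is balanced over the library sets, they were −0.14, −0.03 and −0.05.

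Gstp1, the pi class glutathione S-transferase, missed the adjusted threshold by little. It had 36.2, 27.8 and 28.5 CPM in the HFD+SAMC libraries and 56.8, 52.0 and 53.7 CPM in the Control+SAMC libraries, without overlap and with 11.8, 13.0 and 11.1 CPM in the HFD libraries and 14.4, 13.7 and 12.1 CPM in the Control libraries. The log2 fold change was −0.81 ± 0.13 (edgeR, adjusted p = 0.0527). With a stricter filter on low counts the adjusted p was 0.0438. With any 1 library left out, the adjusted p of Gstp1 in edgeR ranged from 0.0373 to 0.208. Its promoter is shown because it holds a run, in capitals, TGACTCAGC, that matches forms of the antioxidant response element, which Nrf2 binds, and of the AP-1 motif. It was in 3 of 27 promoters of Nrf2 targets (11.11%), those of Prdx1, Me1 and Gstp1, and in 0.38% of all promoters, on either strand. The window is chr1:210769706-210769955 (minus strand) in GRCr8.
Gstp1: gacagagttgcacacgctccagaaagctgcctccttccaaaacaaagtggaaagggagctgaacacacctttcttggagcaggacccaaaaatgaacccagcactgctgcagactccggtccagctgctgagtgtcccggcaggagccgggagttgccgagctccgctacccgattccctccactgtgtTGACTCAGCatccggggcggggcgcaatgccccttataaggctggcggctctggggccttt

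Akr7a3, an aldehyde reductase, had 167, 167 and 156 CPM in the HFD+SAMC libraries and 527, 186 and 306 CPM in the Control+SAMC libraries, where Control+SAMC replicate 1 was by far the highest (−1.06 ± 0.29, edgeR, adjusted p = 0.225). Ugp2, which makes UDP-glucose, had 119, 95.5 and 118 CPM in the HFD+SAMC libraries and 261, 222 and 209.5 CPM in the Control+SAMC libraries (−1.06 ± 0.23, edgeR, adjusted p = 0.125). Ugt1a6, a phenol glucuronosyltransferase, had 42.1, 67.5 and 26.7 CPM in the HFD+SAMC libraries and 169.8, 79.8 and 78.3 CPM in the Control+SAMC libraries, and Sult2a6, a hydroxysteroid sulfotransferase, 385, 307 and 355 CPM in the HFD+SAMC libraries and 681, 830.0 and 649 CPM in the Control+SAMC libraries. None of these 4 genes had overlapping groups. Gclc and Gclm, the subunits of glutamate-cysteine ligase that make glutathione, were at −0.81 ± 0.35 and −1.04 ± 0.39, and Txnrd1, the thioredoxin reductase, at −0.69 ± 0.30. The standard readouts overlapped between groups: Nqo1 had 109.8, 129.8 and 72.1 CPM in the HFD+SAMC libraries and 123, 105 and 129 CPM in the Control+SAMC libraries, and Hmox1 128, 122 and 185 CPM in the HFD+SAMC libraries and 95.2, 261 and 173 CPM in the Control+SAMC libraries. Nfe2l2, which encodes Nrf2, was at 0.10 ± 0.16, and Ahr at −0.09 ± 0.46.

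Inflammatory genes named in the title of the series showed no difference past the threshold. Nlrp3, the sensor of the inflammasome, had 3.77, 4.11 and 4.92 CPM in the HFD+SAMC libraries and 3.80, 3.54 and 2.86 CPM in the Control+SAMC libraries (0.33 ± 0.27, edgeR, adjusted p = 0.729). Nlrp6 had no count in any of the 12 libraries and was not tested, where 3 counts would be 0.0460 to 0.0734 CPM. Of 23 inflammasome and interleukin-1 genes, 2 were higher and 1 lower at an unadjusted p under 0.05, close to the share over all genes. NF-kB genes gave 1 higher and 0 lower of 21, with Nfkb1 at 0.18 ± 0.12, Rela at 0.00 ± 0.15 and Nfkbia, the inhibitor IkBa, at 0.05 ± 0.25. Tnfaip3, an inhibitor of NF-kB signalling, had 6.56, 6.57 and 11.8 CPM in the HFD+SAMC libraries and 3.10, 4.80 and 6.03 CPM in the Control+SAMC libraries (0.84 ± 0.30, edgeR, adjusted p = 0.339). Interferon-stimulated genes had 0 higher and 1 lower of 29.

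**Figure D3:**
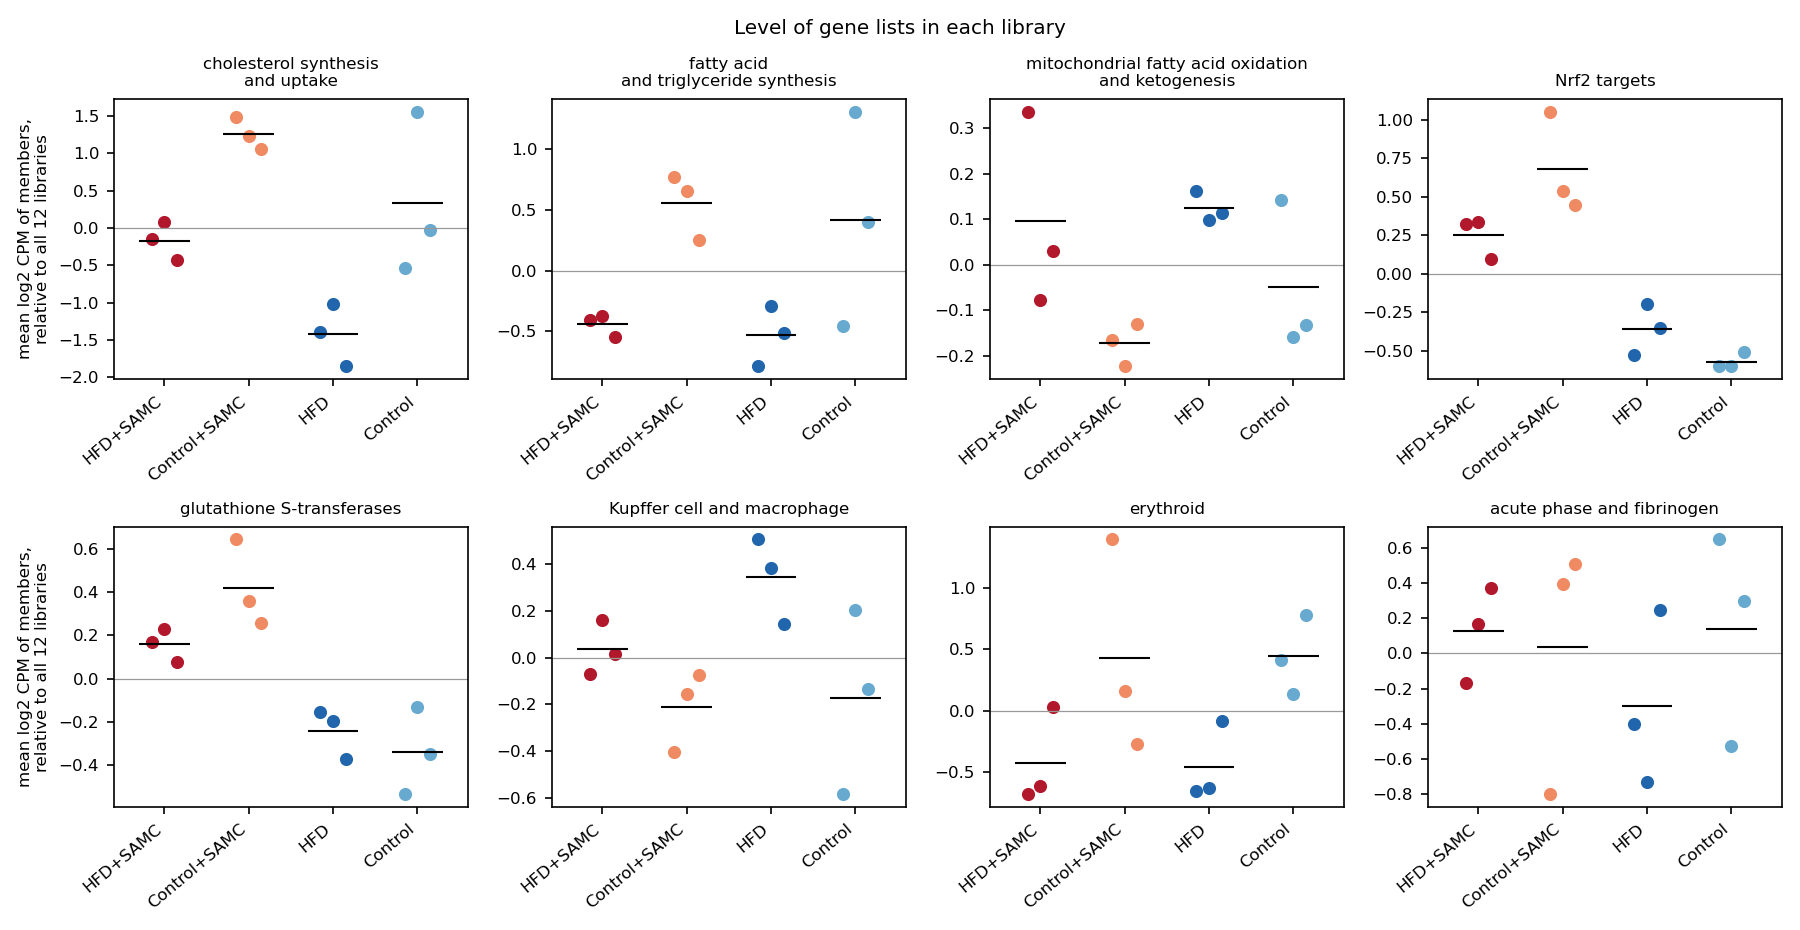
Mean log2 CPM of the members of 8 gene lists in each library, relative to the mean over all 12 libraries (points), with group means (horizontal lines), for HFD+SAMC, Control+SAMC, HFD and Control. For the sterol genes the HFD+SAMC libraries (−0.15, 0.07 and −0.43) lie below the Control+SAMC libraries (1.49, 1.23 and 1.05), and Control+SAMC replicate 1 is the high library for Nrf2 targets and erythroid markers.

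Amino acid catabolism genes were mostly a little below 0. Of 28 genes of the urea cycle and amino acid catabolism 26 were below 0 (median −0.26), and 2 had an unadjusted p under 0.05, a share near that of all genes. Cdo1, the cysteine dioxygenase that opens taurine synthesis, had 407, 346 and 401 CPM in the HFD+SAMC libraries and 468, 763 and 568 CPM in the Control+SAMC libraries (−0.64 ± 0.22, edgeR, adjusted p = 0.319). The median of this list was −0.52 without HFD+SAMC replicate 1, −0.49 without Control+SAMC replicate 1 and −0.13 without Control+SAMC replicate 2. Hnf4a, the nuclear receptor that maintains hepatocyte identity, had 499.6, 649 and 529.8 CPM in the HFD+SAMC libraries and 923, 1236 and 893 CPM in the Control+SAMC libraries (−0.86 ± 0.17, edgeR, adjusted p = 0.0918), and Onecut1, another hepatocyte transcription factor, 286, 164 and 265 CPM in the HFD+SAMC libraries and 632, 369 and 577 CPM in the Control+SAMC libraries (−1.14 ± 0.24, edgeR, adjusted p = 0.117). In both, every HFD+SAMC library was below every Control+SAMC library. Igfbp3, a carrier of insulin-like growth factors, had 28.9, 23.5 and 24.9 CPM in the HFD+SAMC libraries and 34.6, 44.1 and 33.5 CPM in the Control+SAMC libraries. All 13 mitochondrially encoded genes were below 0 (median −0.42), and 8 did not overlap, all lower, against 8.54% of all genes. The 13 come from shared transcripts, so they are not independent. ND4, a subunit of complex I, had 192, 172 and 194 CPM in the HFD+SAMC libraries and 463, 289 and 319 CPM in the Control+SAMC libraries (−0.94 ± 0.36, edgeR, adjusted p = 0.382). Nuclear genes of oxidative phosphorylation had a median of 0.06 and 26 of 37 above 0.

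Among genes outside these lists that came next by p were Arhgef7, a guanine nucleotide exchange factor of Rac and Cdc42, and Slc7a2, a transporter of cationic amino acids. Arhgef7 had 47.6, 39.6 and 38.3 CPM in the HFD+SAMC libraries and 27.9, 27.0 and 25.3 CPM in the Control+SAMC libraries (0.65 ± 0.11, edgeR, adjusted p = 0.0583), and Slc7a2 had 136, 132 and 109 CPM in the HFD+SAMC libraries and 211, 351 and 288 CPM in the Control+SAMC libraries (−1.17 ± 0.21, edgeR, adjusted p = 0.0670). Tmem179, a membrane protein, had 6.76, 7.85 and 6.95 CPM in the HFD+SAMC libraries and 1.54, 1.25 and 1.45 CPM in the Control+SAMC libraries (2.34 ± 0.40, edgeR, adjusted p = 0.0670). Their groups did not overlap. Of genes that lead the diet difference without SAMC, Prom1, a membrane protein of progenitor and bile duct cells, had 9.22, 11.5 and 7.80 CPM in the HFD+SAMC libraries and 31.0, 20.1 and 31.1 CPM in the Control+SAMC libraries, and Dpt, a matrix protein, 119.9, 151 and 104 CPM in the HFD+SAMC libraries and 251, 201 and 269 CPM in the Control+SAMC libraries. Neither passed here, with adjusted p of 0.123 and 0.203 in edgeR. Acnat2, which conjugates acyl groups to amino acids, had 1.40, 1.13 and 2.07 CPM in the HFD+SAMC libraries and 0.739, 0.475 and 0.818 CPM in the Control+SAMC libraries (1.18 ± 0.30, edgeR, adjusted p = 0.193).

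Of the other pathway lists, most had shares near those of all genes. Circadian clock genes had 1 higher and 1 lower of 21 at an unadjusted p under 0.05, ER stress genes 1 and 1 of 22, bile acid genes 2 and 1 of 22, cell cycle genes 2 and 0 of 33, and proteasome subunits 0 and 0 of 31. Matrix and fibrosis genes had 4 higher and 3 lower of 34, against 5.62% and 5.26% of all genes, with a median of −0.05. Growth hormone and insulin-like growth factor genes were below 0 in 11 of 15, with 3 lower at an unadjusted p under 0.05. Their median was −0.43, or −0.11 without HFD+SAMC replicate 3. Periportal genes were below 0 in 11 of 12, with 1 lower at that p. Their median was −0.39, or −0.13 without Control+SAMC replicate 2. Glucose metabolism genes were below 0 in 18 of 22, with a median of −0.25. Slc2a2, the glucose transporter of hepatocytes, had 279.8, 329 and 264 CPM in the HFD+SAMC libraries and 316, 450.1 and 401 CPM in the Control+SAMC libraries (−0.42 ± 0.18, edgeR, adjusted p = 0.423). Eif2ak3, which encodes the stress kinase PERK, had 19.7, 17.3 and 17.7 CPM in the HFD+SAMC libraries and 27.0, 25.9 and 23.3 CPM in the Control+SAMC libraries (−0.48 ± 0.11, edgeR, adjusted p = 0.165). Ireb2, a regulator of iron-responsive mRNAs, had 64.4, 61.5 and 62.8 CPM in the HFD+SAMC libraries and 83.4, 84.8 and 97.1 CPM in the Control+SAMC libraries (−0.49 ± 0.12, edgeR, adjusted p = 0.192). For Eif2ak3 and Ireb2 every HFD+SAMC library lay below every Control+SAMC library. Apcs, the serum amyloid P component, had 498, 437 and 506 CPM in the HFD+SAMC libraries and 644, 815 and 735 CPM in the Control+SAMC libraries, and Hspb1, a small heat shock protein, 84.7, 154 and 104 CPM in the HFD+SAMC libraries and 63.7, 34.4 and 25.8 CPM in the Control+SAMC libraries. Prlr, the prolactin receptor, had 331, 269 and 362 CPM in the HFD+SAMC libraries and 577, 659 and 406 CPM in the Control+SAMC libraries (−0.77 ± 0.28, edgeR, adjusted p = 0.348).

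Markers of cell types are given by list. Hepatocyte markers were below 0 in 9 of 11, Hnf4a among them, with a median of −0.27. Without SAMC all 11 were below 0, with a median of −0.43. In whole tissue, fewer cells of a type and less RNA per cell cannot be told apart. Kupffer cell and macrophage markers had 12 of 18 above 0 and 1 at an unadjusted p under 0.05, and summed to 999, 1183 and 1149.9 CPM in the HFD+SAMC libraries and 889, 1137 and 948 CPM in the Control+SAMC libraries. That gene, Lyz2, a lysozyme, had 41.9, 35.6 and 128 CPM in the HFD+SAMC libraries and 26.4, 33.0 and 28.6 CPM in the Control+SAMC libraries, with its high value in HFD+SAMC replicate 3. Sinusoidal endothelial markers summed to 643, 574 and 628 CPM in the HFD+SAMC libraries and 571, 708 and 622 CPM in the Control+SAMC libraries. Hepatic stellate cell markers were above 0 in 5 of 13, with a median of −0.24 and 2 higher at an unadjusted p under 0.05, Rgs5 and desmin. Rgs5, which pericytes also express, had 8.26, 7.48 and 7.49 CPM in the HFD+SAMC libraries and 3.53, 4.17 and 3.05 CPM in the Control+SAMC libraries (1.11 ± 0.25, edgeR, adjusted p = 0.158). Desmin, which muscle also expresses, was at 61.0 CPM in HFD+SAMC replicate 3 and at no more than 4.15 CPM in the other 5 libraries. All 10 erythroid markers were below 0, with a median of −1.09 that was −0.40 without Control+SAMC replicate 1. The globin gene Hba1 was at 1007 CPM in that library and 186 to 362 CPM in the others. T and NK cell markers were above 0 in 13 of 16, with a median of 0.35 that was 0.04 without Control+SAMC replicate 1, and 1 had an unadjusted p under 0.05. B and plasma cell markers were above 0 in 5 of 7 (median 0.78, or 0.50 without Control+SAMC replicate 2), with 0 at an unadjusted p under 0.05. Cholangiocyte markers were above 0 in 6 of 10 (median 0.05, or −0.10 without Control+SAMC replicate 1 and −0.10 without HFD+SAMC replicate 2). Neutrophil markers had a median of 0.05 over 6 genes, or −0.80 without HFD+SAMC replicate 3 and 0.75 without Control+SAMC replicate 2. Exocrine pancreas markers had a median of 0.62 over 4 genes, or −0.58 without HFD+SAMC replicate 2. All 11 skeletal muscle markers tested were higher at an unadjusted p under 0.05 (median 5.21), and 0 were without HFD+SAMC replicate 3 (median 0.37). Skeletal muscle markers summed to 6.07, 4.86 and 1654 CPM in the HFD+SAMC libraries and 3.61, 5.34 and 3.52 CPM in the Control+SAMC libraries. The part of these muscle and erythroid transcripts in the differences above was not tested beyond leaving out their libraries. Acute phase genes had a median of −0.05, and Fga itself had 8221, 10748 and 12892 CPM in the HFD+SAMC libraries and 3407, 11358 and 17184 CPM in the Control+SAMC libraries.

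Set beside the diet difference without SAMC, the difference under SAMC was similar for some genes and not for others. In edgeR's test, HFD against Control had 23 genes past the threshold (0.145% of those tested), and at an unadjusted p under 0.05 5.91% of genes were higher and 4.76% lower. Of the 10 genes past the threshold under SAMC, 7 had the same sign without SAMC, against 56.6% of all genes, and 4 also passed there. These 4 were Vnn1 and Cyp2b1 with the same sign and LOC100911991 and Eif4g2-ps1 with the opposite sign. Of the 23 past it without SAMC, 15 had the same sign under SAMC. Over all 15916 genes the log2 fold changes had a Pearson r of 0.14 and a Spearman rho of 0.17. This is across genes of the same libraries, which are not independent, and no p is given. Sterol genes were lower in both, with medians of −1.43 under SAMC and −1.99 without, and so were those of fatty acid synthesis, with −0.80 and −0.92. In the mean over SAMC, 67 genes passed (0.421%), and these held 7 of the 10: Vnn1, Cyp2b1, Cidea, Josd2, Apoa4, Smpdl3b and LOC100362572. That mean includes the difference under SAMC by which the 10 were chosen, so passing there is no separate support for them.

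The interaction of diet and SAMC was past an adjusted p of 0.05 for 23 genes in edgeR (Benjamini-Hochberg), or 0.145% of those tested, 3 of them higher (0.0188%) and 20 lower (0.126%). At an unadjusted p under 0.05 it was 7.41%. It sets the HFD+SAMC and Control libraries against the other 6, which are the library sets, so the interaction and the sets cannot be told apart. For 22 of the 23 genes the sets did not overlap in any of the 12 libraries, against 0.773% of all genes. The 23 were chosen by a difference between these same sets, so this share is no separate result. Of the 10 genes past the threshold under SAMC, LOC100911991 and Eif4g2-ps1 were among the 23. Hsp90aa1, a cytosolic chaperone gene with close copies in the genome, had 5.71, 5.11 and 5.99 CPM in the HFD+SAMC libraries and 12.7, 7.02 and 8.85 CPM in the Control+SAMC libraries. Without SAMC it had 11.8, 13.4 and 13.2 CPM in the HFD libraries and 5.20, 3.70 and 2.85 CPM in the Control libraries. It was thus lower with the high fat diet under SAMC (−0.76 ± 0.24) and higher without (1.71 ± 0.25), with an interaction of −2.47 ± 0.34 (edgeR, adjusted p = 0.0165). For Apoa4 and Cidea the interaction was −1.18 ± 0.41 and 0.47 ± 0.36, with adjusted p of 0.568 and 0.829 in edgeR. A p that misses the threshold does not show that the diet acted alike with and without SAMC.

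**Figure D4:**
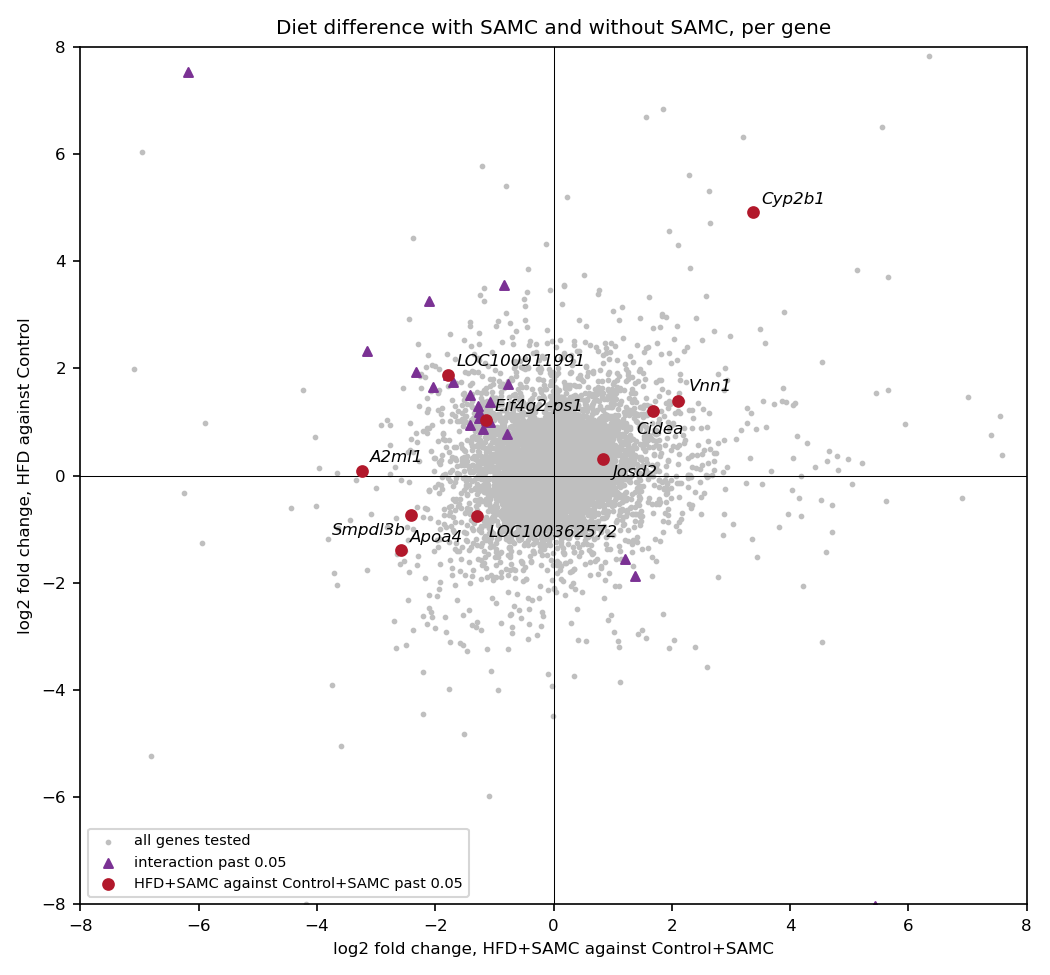
Log2 fold change of each gene tested (grey) in HFD+SAMC against Control+SAMC (horizontal) and in HFD against Control (vertical), with the 10 genes past the threshold under SAMC in red and named, and genes with an interaction past it as purple triangles. Cyp2b1, Vnn1, Cidea and Josd2 lie above 0 on both axes and Apoa4, Smpdl3b and LOC100362572 below 0 on both, and 8 genes lie outside the axes.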

How the data were processed

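The authors' deposited table gives a count of reads per gene and an RPKM per library. Per the labels' protocols, RNA was isolated with Trizol, depleted with Ribo-Zero, made into libraries with NEBNext Ultra, aligned with HISAT2 and counted with HTSeq. Reads were trimmed with Trimmomatic 0.36, per the submitters' processing notes. The sources used here name no genome build, annotation or strand setting, so overlapping or antisense genes may share reads. Deposited RPKM values served only to check lengths: they equalled count over length and total within 1e-06 for all genes but 1.

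Of 40154 genes, 15916 passed filterByExpr and held 99.96% of counts, and 14180 had no count. All 12 libraries entered 1 quasi-likelihood fit (edgeR 4.0.16, R 4.3.3, TMM scaling, robust, 8 residual degrees of freedom, common biological coefficient of variation 0.299). Tests were two-sided, adjusted by Benjamini-Hochberg over all genes, threshold 0.05, and the script was tested on simulated data. Lists (44) were described by counts, without a test. Some named genes are not reported here. The members and lists were chosen with earlier results of these data known. Genes were named where they passed, did not overlap, had a symbol that is not provisional and averaged 1 or more log2 CPM (up to 15 each way, filled to 10 by unadjusted p), up to 4 members per list by p, title genes, and genes led with in earlier results. Alternatives were other scalings (RLE, upper quartile), filters, DESeq2 1.42.0, 6 libraries only, a replicate block, no robust estimate and leaving out each library. After seeing the data, 2 were added: leaving out both libraries that stand apart, and the mean over SAMC. Same-numbered libraries of both groups did not deviate together (correlations of 0.03, 0.0004 and 0.04), so numbers were not taken as pairs. Libraries of a group differed from each other beyond counting error (chi-square per degree of freedom 68.1 to 192).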

Additional observations from a re-analysis of the deposited data

Results flagged for a closer look

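Named genes whose diet difference under SAMC differed from that without SAMC, by the interaction term of edgeR (quasi-likelihood test, adjusted by Benjamini-Hochberg), were 5. The interaction, in log2 units, was −3.67 ± 0.29 (adjusted p = 0.000328) for LOC100911991, −2.18 ± 0.25 (adjusted p = 0.00611) for Eif4g2-ps1, −2.57 ± 0.32 (adjusted p = 0.00757) for Hnrnpab, −2.47 ± 0.34 (adjusted p = 0.0165) for Hsp90aa1 and −2.33 ± 0.34 (adjusted p = 0.0231) for Serpina10. Hnrnpab, an RNA-binding protein gene, had 1.37, 1.40 and 1.27 CPM in the HFD+SAMC libraries and 2.87, 3.26 and 3.72 CPM in the Control+SAMC libraries, and 3.19, 2.93 and 4.34 CPM in the HFD libraries and 1.54, 1.27 and 1.46 CPM in the Control libraries. Serpina10, the protein Z-dependent protease inhibitor, had 1.79, 2.18 and 1.62 CPM in the HFD+SAMC libraries and 3.57, 4.23 and 5.60 CPM in the Control+SAMC libraries, and 3.66, 4.21 and 4.94 CPM in the HFD libraries and 2.46, 1.84 and 1.79 CPM in the Control libraries. All 5 were low in the HFD+SAMC and Control libraries and high in the other 6, which is also the split of the library sets, and interaction and sets cannot be told apart.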

How the results depend on the processing

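Under SAMC, 4 genes passed higher and 6 lower. The counts were 8 and 13 with no filter on low counts, 9 and 35 with only the 6 libraries compared, 101 and 147 with DESeq2, 0 and 0 without both HFD+SAMC replicate 3 and Control+SAMC replicate 1, and 38 and 29 in the mean over SAMC. With only the 6 libraries compared, 7 of the 10 genes passed, and Josd2, LOC100362572 and Eif4g2-ps1 did not. Leaving out 1 library gave 0 to 11 higher and 0 to 34 lower. With the replicate block 1 passed higher and 1 lower, Vnn1 and LOC100911991. The interaction called 23 genes, 9 with the replicate block, 119 with DESeq2, 1 without both libraries that stand apart and 7 to 19 without 1 library. HFD against Control called 23, 4 with only its 6 libraries, 310 with DESeq2, 13 without both libraries and 4 to 53 without 1 library. LOC100911991 changed sign in the mean over SAMC, at 0.0466 (edgeR, adjusted p = 0.928). There −1.79 under SAMC was averaged with 1.88 without. Eif4g2-ps1 kept its sign but was near 0 in that mean, at −0.0457 (edgeR, adjusted p = 0.916), from −1.14 and 1.05. No other called value among the named genes changed sign under these alternatives. RLE and upper quartile scaling, a stricter filter and no robust estimate called 9 to 11 genes, of which 9 or 10 were shared with the 10. Cidea was lost with RLE scaling and with no robust estimate. With 3 libraries a group, small differences near the threshold were limited by the spread between libraries.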
